A study of Mus musculus with 6 samples.

Results

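S100 proteins and annexins were followed by their transcripts in whole mouse kidney with and without deletion of the transferrin receptor TfR1 in the distal nephron. Members were the genes whose symbol begins with S100 and a letter, or is Anxa with a number. There were 30 of them among the 24422 genes listed, 18 of the S100 pattern and 12 annexins. One of the 18, S100pbp, encodes a protein that binds an S100 protein and is not itself one. A change is given for the 24 members (13 and 11) with at least 10 counts in 3 or more of the 6 libraries, and all 24 were also among the 15171 genes that could be tested.

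Poly-A RNA was sequenced from kidneys of C57BL/6 mice at postnatal day 60 on a diet with 220 ppm iron, 3 control (wild type) and 3 TfR1KO;KspCre (genotype Tfr1f/f;KspCre), called controls and knockouts 1 to 3. In the knockouts loxP sites flank exons of the gene for TfR1, and the promoter of Ksp-cadherin drives Cre in the distal nephron, while the libraries hold RNA of all cells of the kidney. The libraries held 11501053 to 21001341 counts, the smallest being knockout 3, in which Rn45s, for ribosomal RNA, made up 2.59% of counts against 0.506% to 0.745% elsewhere. Tfrc, the gene for TfR1, had 2783, 2856 and 1032 counts in controls and 4368, 1713 and 530 in knockouts. Knockout 1 was thus above all controls, and Tfrc gave no check of the labels. Nothing in the labels ties same-numbered libraries to each other, and p-values measure the spread between these 6 libraries.

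S100 proteins are small EF-hand proteins that mostly act as dimers. When calcium rises in the cell, most of them expose a surface that binds a target, and some are also released and bind receptors on other cells, such as RAGE (Ager) and Tlr4. Annexins bind acidic phospholipids of membranes in a calcium-dependent manner, and take part in membrane traffic, in resealing of torn plasma membrane and, for Anxa1, in resolving inflammation. The families meet in complexes, the best known being S100a10 with Anxa2 and S100a11 with Anxa1. In the kidney S100g (calbindin-D9k) is known as a calcium carrier of the distal tubule.

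Promoters of 4 called members are shown here because they hold the motifs described below and belong to 2 S100 and 2 annexin genes that rose. Each is the 250 bases before the transcription start in RefSeq (build GRCm38.p6), written 5′ to 3′ along the strand of the gene. Capitals mark AP-1 motifs (TGANTCA, which reads the same on both strands) and TATA boxes (TATAAA, searched on both strands). The windows are chr3:93520246-93520495, plus strand for S100a11, chr3:90603520-90603769, plus strand for S100a4, chr9:69453433-69453682, plus strand for Anxa2 and chr19:20390672-20390921, minus strand for Anxa1.
S100a11: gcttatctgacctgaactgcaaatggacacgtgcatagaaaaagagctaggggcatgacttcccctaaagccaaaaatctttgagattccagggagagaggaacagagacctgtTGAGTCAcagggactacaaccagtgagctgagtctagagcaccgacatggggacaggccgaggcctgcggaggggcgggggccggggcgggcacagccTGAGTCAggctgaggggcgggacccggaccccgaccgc
S100a4: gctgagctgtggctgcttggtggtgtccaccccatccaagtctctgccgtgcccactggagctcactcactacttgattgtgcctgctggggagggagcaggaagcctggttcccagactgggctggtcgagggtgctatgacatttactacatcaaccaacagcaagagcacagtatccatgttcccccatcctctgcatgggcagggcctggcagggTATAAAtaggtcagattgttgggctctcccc
Anxa2: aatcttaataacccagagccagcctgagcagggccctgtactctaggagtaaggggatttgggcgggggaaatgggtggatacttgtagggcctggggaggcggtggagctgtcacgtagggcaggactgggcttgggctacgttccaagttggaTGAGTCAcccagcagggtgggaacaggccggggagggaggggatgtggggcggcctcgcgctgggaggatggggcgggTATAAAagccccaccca
Anxa1: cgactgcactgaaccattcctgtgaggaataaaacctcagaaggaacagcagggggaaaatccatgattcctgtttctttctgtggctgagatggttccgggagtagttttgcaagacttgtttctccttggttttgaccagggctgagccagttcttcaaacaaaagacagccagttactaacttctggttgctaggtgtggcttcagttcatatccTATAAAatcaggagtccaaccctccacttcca

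The S100a11 window held an AP-1 motif 136 and another 38 bases before the start, and Anxa2 held 1 at 95 bases. AP-1 is the factor pair of the Fos and Jun families. Among all 32851 RefSeq windows of this length, 6.75% held the AP-1 motif and 12.4% the TATA box. The 24 members found in RefSeq had 32 windows, since a gene can have several starts, and 4 of these (12.5%, 1 each of S100a11, Anxa2, S100a16 and Anxa10) held an AP-1 motif and 6 (18.8%) a TATA box. TATA boxes began 31 bases before the start in S100a4, 32 in Anxa1 and 17 in Anxa2. A GC box (GGGCGG on either strand) was in 10 of the 32 windows (31.2%) against 32.7% of all windows, and an NF-kB motif in 1 (3.12%), of Anxa4, against 3.90%. Of the 6 called members with a window, 2 held AP-1, 3 a TATA box, 2 a GC box and 0 an NF-kB motif. These are matches of letters, and no binding was measured.

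The data show 5 S100 genes (S100a4, S100a6, S100a10, S100a11 and S100a14) and 4 annexins (Anxa1, Anxa2, Anxa3 and Anxa5) higher in the knockouts, by log2 fold changes of 0.78 to 3.08, and 0 members lower. Of the 24 tested members 37.5% were thus called, all higher, at a threshold of 0.05 on the p-value of edgeR's quasi-likelihood test, adjusted by Benjamini-Hochberg over all genes tested. Over all genes tested 17.2% were called, 10.6% higher and 6.64% lower. Among the genes of the S100 pattern, S100pbp included, 5 of 13 passed and among the annexins 4 of 11. In 13 of the 24 members each knockout lay above each control, where 23.8% of all tested genes did so. In 0 members all knockouts lay below, against 22.2% of all genes. The median log2 fold change was 0.74 over the 24 members and 0.02 over all genes tested. It was positive in 17 members and negative in 7, of which Anxa7, Anxa11 and S100a1 turned positive with library size alone in place of TMM, a scaling that shifted the median of all tested genes by 0.27.

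**Figure D1:**
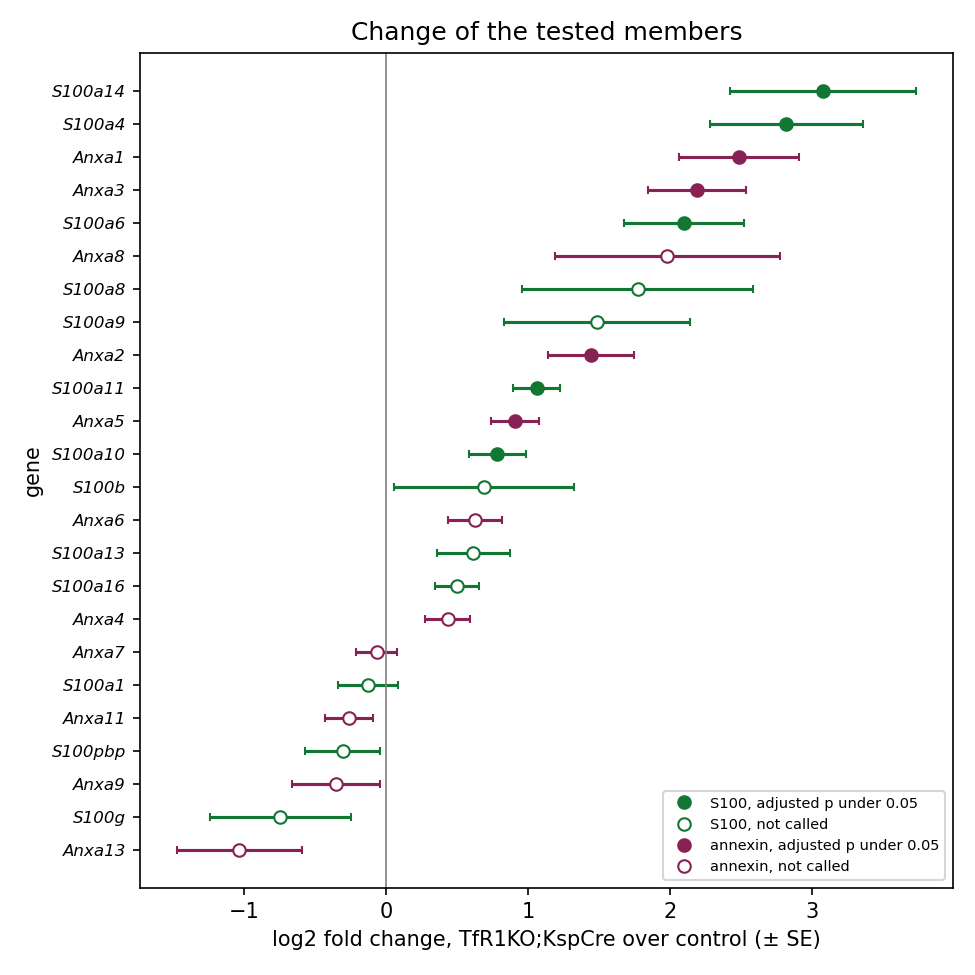
Log2 fold change of each tested member in TfR1KO;KspCre over control kidneys, with bars of 1 SE from the fit over 3 libraries a group. Filled points passed an adjusted p under 0.05 and all 9 lie to the right of 0. With library size alone in place of TMM the points of Anxa7, Anxa11 and S100a1 move to the right of 0.

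The adjusted p of the called members ran from 0.0277 to 0.0434, near the threshold, and the smallest over all genes was 0.0271. All 9 calls were lost when control 1, control 2, control 3, knockout 2 or knockout 3 was left out, where edgeR called 0 members and 5 to 8 S100 genes and 5 or 6 annexins still had an unadjusted p under 0.05. This loss was not particular to the members, since over all genes 0 calls were left without any 1 of the controls, 73 without knockout 2 and 2 without knockout 3, with 4270 to 4823 genes at an unadjusted p under 0.05. Without knockout 1 there were 7 S100 and 5 annexin calls, and 5332 calls among 15494 genes. Knockout 1 also stood nearer the controls over all genes, at 9.67 on the first principal component (69.4% of the variance) against -72.6 to -53.2 for controls and 82.1 to 88.6 for the other 2 knockouts. Control 2 alone had Y-linked transcripts (3980 counts of 4 genes, at most 5 elsewhere) and 52 counts of Xist. With their ratio as a covariate edgeR called 0 members, and 5 S100 genes and 6 annexins had an unadjusted p under 0.05, while over all genes it called 0 and 4219 had an unadjusted p under 0.05. Since this ratio sets only control 2 apart, the setting comes close to leaving control 2 out and is no separate check. The 9 called members kept a positive log2 fold change in every one of the 15 alternative settings.

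The whole kidney mixes cell types, and fewer cells of a type and less RNA per cell cannot be told apart in these libraries. Of the marker lists, macrophage genes were higher in 8 of 9, T cell genes in 4 of 5 and fibroblast genes in 4 of 9, and proximal tubule genes lower in 6 of 7. The summed fibroblast level was 369.1 to 697.2 CPM (counts scaled to a common library total by TMM) in controls, and 1063.9, 4141.1 and 4138.3 CPM in knockouts 1 to 3. Summed macrophage markers were at 176.1 to 187.7 CPM in controls and 423.2, 1316.5 and 547.6 CPM in knockouts, and T cell markers at 3.93 to 6.30 CPM against 16.4, 45.8 and 13.9 CPM. One urothelial gene of 8 (Krt20) was called higher, and the list summed to 34.3 to 82.7 CPM in controls and 84.5, 905.4 and 30.4 CPM in knockouts, so knockout 2 stood apart. Endothelium (0 of 7 called), thick ascending limb (0 of 6), collecting duct (0 of 8), neutrophil (0 of 4 tested) and red cell genes (0 of 2 tested, with 4 globin genes at 0 counts in all libraries) had no call, and 1 of 6 distal convoluted and connecting tubule genes (Pvalb) was lower. Thick ascending limb markers summed to 4024.8 to 9828.2 CPM in controls and 6293.2, 884.9 and 1207.8 CPM in knockouts, with knockouts 2 and 3 below every control, and proximal tubule markers to 9089.6 to 12661.6 CPM and 4409.4, 1787.9 and 1482.2 CPM. The part of these cell types in the members' changes was not tested.

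The largest rises among S100 genes were in S100a14 and S100a4. S100a4 encodes a protein that binds non-muscle myosin and is known from fibroblasts and macrophages. Its level was 5.27, 2.47 and 5.94 CPM in controls 1 to 3 and 15.2, 28.1 and 53.8 CPM in knockouts 1 to 3. Each knockout lay above each control, with knockout 3 highest and knockout 1 lowest of the 3. The mean went from 4.56 ± 1.84 to 32.3 ± 19.6 CPM (SD, n = 3). The log2 fold change was 2.82 (SE 0.54, adjusted p 0.0303), a fitted 7.06-fold rise, by edgeR. S100a14, an S100 protein of epithelia, was low in controls at 1.44, 1.12 and 1.14 CPM and reached 7.02, 20.6 and 3.75 CPM in knockouts. Groups did not overlap, but the knockouts spread over a wide range with knockout 2 far above the others. Its log2 fold change was 3.08 (SE 0.65, adjusted p 0.0326) by edgeR. Without knockout 2, the library with the high urothelial markers, it was 2.12, and without knockout 3 it was 3.47. Neither setting called any member, and limma-voom did not call S100a14 with all 6 libraries. Urothelial markers summed to 84.5 and 30.4 CPM in knockouts 1 and 3, where S100a14 was also above every control. The part of urothelial cells in the S100a14 values was not tested.

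S100a6 (calcyclin) binds a ubiquitin ligase adaptor, Cacybp, and is known from fibroblasts and proliferating cells. S100a6 stood at 62.1, 49.7 and 51.7 CPM in controls and at 98.4, 302.7 and 299.9 CPM in knockouts. Knockouts 2 and 3 were nearly equal and 3.06 times as high on average as knockout 1, which itself lay above all controls. The log2 fold change was 2.10 (SE 0.42, adjusted p 0.0311) by edgeR. S100a11 encodes the partner of Anxa1. It had 168.7, 178.4 and 174.6 CPM in controls and 312.7, 372.6 and 404.0 CPM in knockouts. All 3 controls lay within a narrow range and each knockout was well above it, with a log2 fold change of 1.06 (SE 0.16, adjusted p 0.0277), by edgeR. Of the stretches of 100 bases in its transcript 85.9% were unique to it and Gm7665 shared others, so with counting of uniquely mapped reads its level is uncertain.

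S100a10 (p11) has lost calcium binding and is held in a heterotetramer with Anxa2, where it recruits plasminogen and carries channels to the cell surface. It measured 114.5, 87.7 and 96.2 CPM in controls and 150.9, 148.1 and 214.7 CPM in knockouts. The groups did not overlap, with knockouts 1 and 2 close together and knockout 3 higher. Among the calls it was the smallest, at 0.78 (SE 0.20, adjusted p 0.0434) by edgeR.

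S100a8 and S100a9 form calprotectin, an alarmin of neutrophils and monocytes. S100a8 was sparse, with 9, 13 and 23 counts in controls and 12, 111 and 35 in knockouts, and S100a9 had 17, 27 and 42 against 35, 164 and 51 counts. Both were highest in knockout 2, and knockout 1 lay within the control range. Log2 fold changes were 1.77 (SE 0.82, adjusted p 0.156) for S100a8 and 1.49 (SE 0.65, adjusted p 0.141) for S100a9, neither called by edgeR. Both were called without knockout 1, at 2.26 and 1.88, and stood at 0.89 and 0.76 without knockout 2. Summed neutrophil markers were 6.88 to 10.7 CPM in controls and 8.93, 25.5 and 11.6 CPM in knockouts, also highest in knockout 2, and the 7 neutrophil markers too low to test held at most 19 counts in any library. The part of such cells in these values was not tested.

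**Figure D2:**
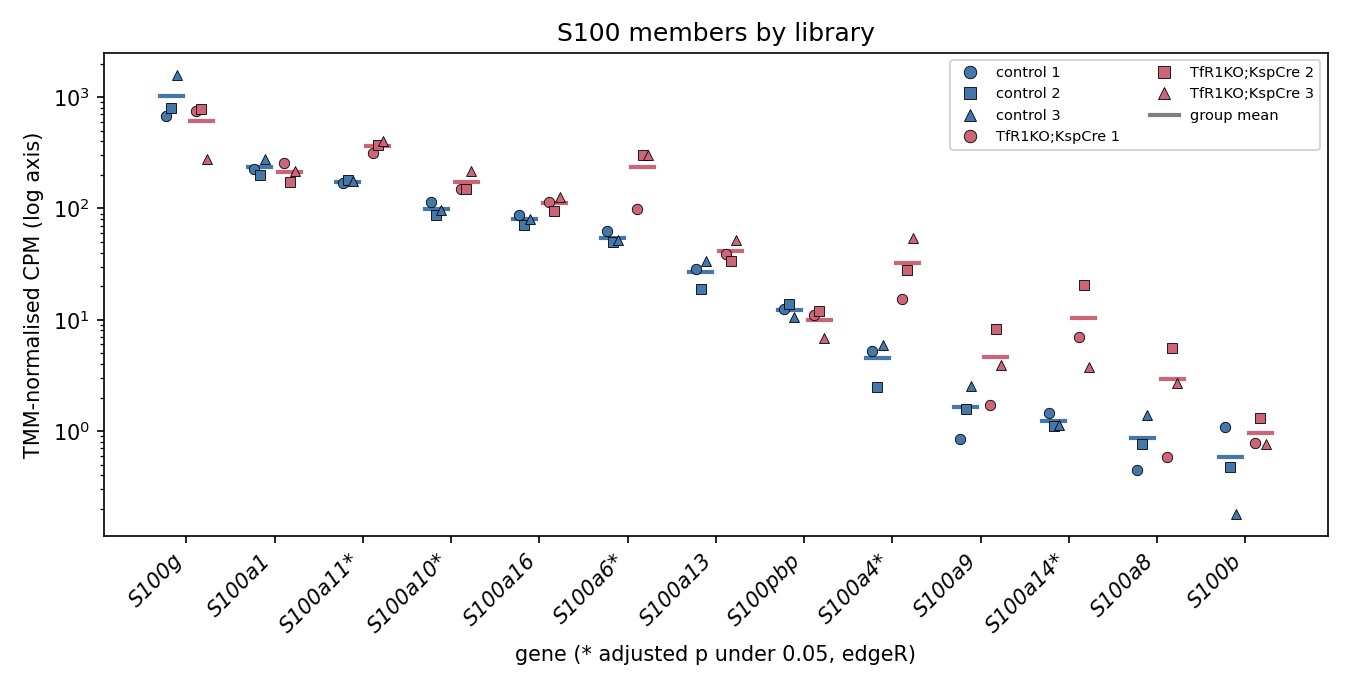
TMM-normalised CPM on a log axis for the 13 tested members of the S100 pattern, one symbol per library and a bar for each group mean (n = 3), ordered by control mean. Blue and red symbols separate without overlap for the 5 starred genes and for S100a13 and S100a16, and S100g and S100a1 are the highest in controls.

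The other tested S100 members did not pass. S100a13, whose protein takes part in the release of Fgf1 from cells, and S100a16, a widely expressed member, had each knockout above each control, at log2 fold changes of 0.62 (SE 0.26, adjusted p 0.125) and 0.50 (SE 0.16, adjusted p 0.0672) by edgeR. S100a16 was called with library size alone and by DESeq2's Wald test. S100b, a glial S100 protein, had at most 1.31 CPM and a log2 fold change of 0.69 (SE 0.63, adjusted p 0.45), which was 1.52 without control 1 and 0.27 without control 3. S100pbp was at -0.31 (SE 0.27, adjusted p 0.426). S100a1, known as a regulator of calcium release channels in muscle, was abundant at 225.2, 200.6 and 277.0 CPM in controls and 254.4, 171.0 and 218.0 CPM in knockouts. Its groups overlapped, and the log2 fold change of -0.13 (SE 0.21, adjusted p 0.683) changed sign with library size alone. S100a2, S100a3, S100a5, S100a7a and S100z failed the count rule, with at most 14 counts in a library, reached by S100a3.

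S100g was the most abundant S100 transcript in every library but knockout 3. It stood at 670.8, 797.1 and 1581.8 CPM in controls and 755.9, 786.6 and 276.9 CPM in knockouts. Control 3 was the highest of all libraries and knockout 3 the lowest, while the other 4 lay close together and the groups overlapped. The log2 fold change of -0.75 (SE 0.50, adjusted p 0.302) did not pass (edgeR). Summed distal convoluted and connecting tubule markers were 3905.1 to 6317.3 CPM in controls and 3948.7, 2588.8 and 928.9 CPM in knockouts, so knockout 3 was lowest there too. S100g lies on chromosome X at 159399924 to 159402531 (mm9, minus strand), within the span of Ctps2 but outside its exons.

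Levels were compared between genes as counts per kilobase of merged exons scaled to the same total in every library (TPM), which orders transcripts by abundance within a library and carries no TMM scaling between libraries. On this scale S100g was at 3862, 3798 and 8142 TPM in controls and 4707, 5508 and 1971 TPM in knockouts. It made up 59.7%, 65.8% and 76.6% of the summed level of S100 genes in controls (67.3% ± 8.55, SD, n = 3) and 52.9%, 48.7% and 22.7% in knockouts (41.4% ± 16.3). Every knockout share lay below every control share, although the S100g level itself overlapped. S100a11 took 12.0% ± 3.48 of the S100 sum in controls and 24.5% ± 5.82 in knockouts (SD, n = 3), and S100a6 took 2.70% ± 1.01 and 11.2% ± 6.03. In knockout 3, S100a11 exceeded S100g, with 2702 against 1971 TPM. The share of S100a1 was 11.5% ± 2.29 and 10.7% ± 2.89, a difference smaller than the spread between libraries.

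**Figure D3:**
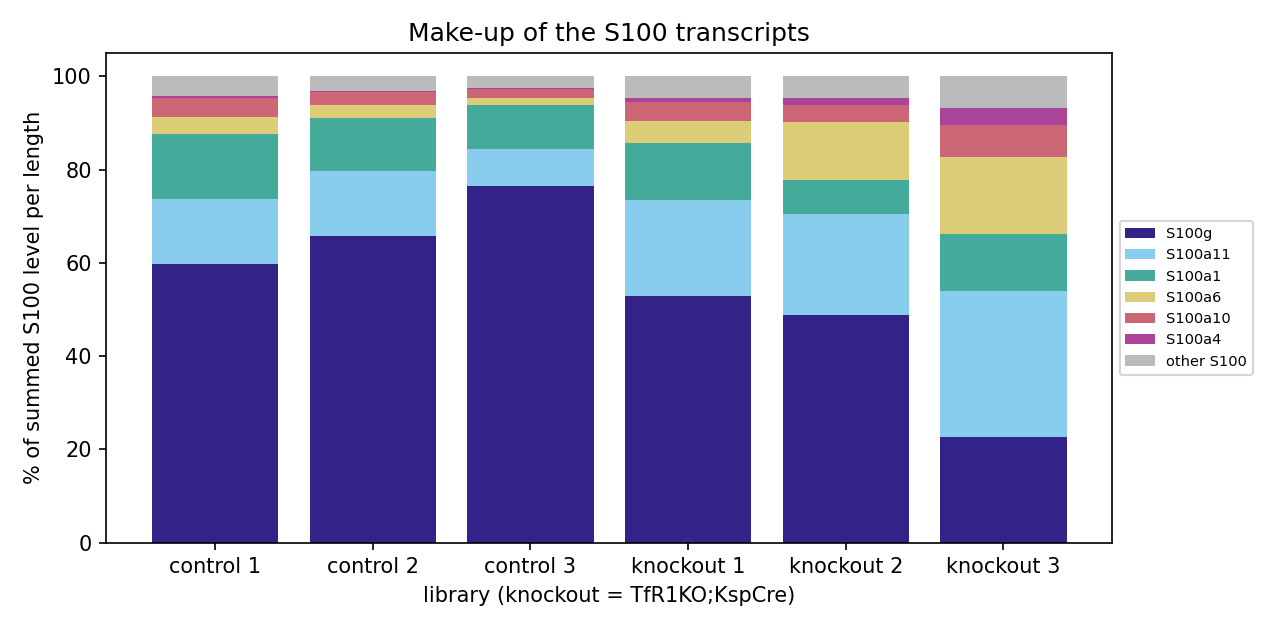
Percent of the summed per-length level of S100 transcripts in each of 6 libraries, as stacked bars from 0, leaving out S100pbp and S100a2. Named parts are S100g, S100a11, S100a1, S100a6, S100a10 and S100a4, and the other S100 genes are pooled. The S100g part spans 59.7% to 76.6% in controls and 22.7% to 52.9% in knockouts, and the S100a11 part is wider in each knockout than in any control.

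On chromosome 3 (mm9) lie 13 S100 genes, in 2 blocks. The first holds 11 genes in 184.7 kb, from S100a1 to S100a9 (90314956 to 90499643), and the second holds S100a11 and S100a10 (93324410 to 93368565), 2.82 Mb away. Called and uncalled genes were interspersed in the first block. S100a14 rose between S100a13 and S100a16, which did not pass, and S100a4 and S100a6 rose while S100a3 and S100a5 beside them, of at most 14 counts, could not be tested. S100a1 and S100a13 start 42 bases apart on opposite strands, and their log2 fold changes were -0.13 and 0.62. Both genes of the second block rose. Of the 53 genes between the blocks 9 were tested, of which 2 were higher and 0 lower.

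**Figure D4:**
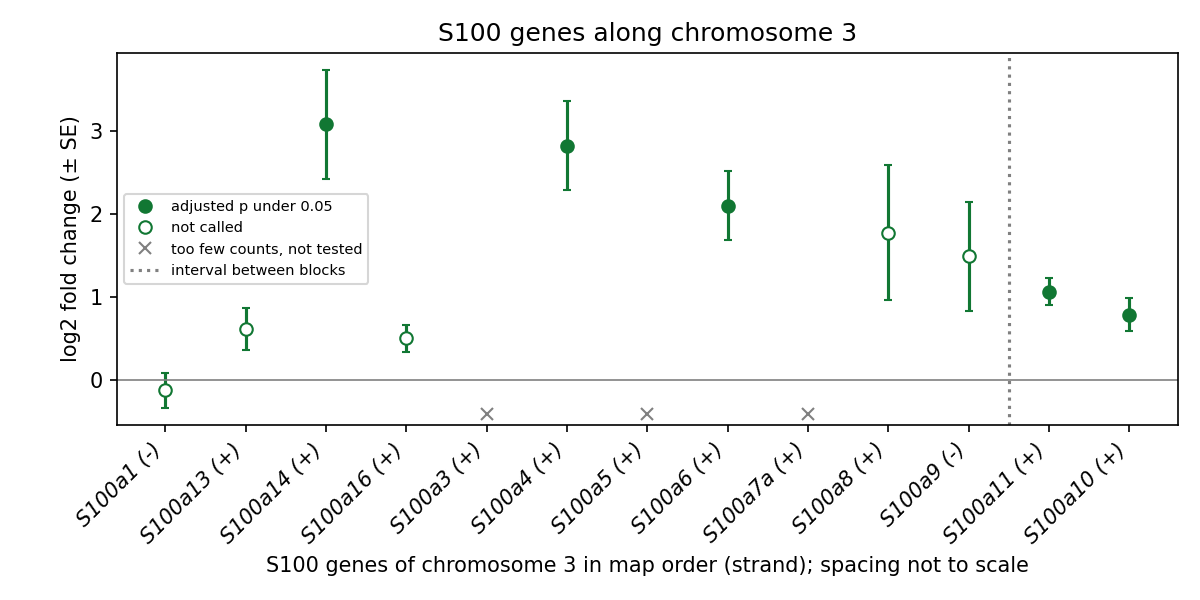
Log2 fold change (bars, 1 SE) of the 13 S100 genes of chromosome 3 in map order, with the strand after each name and a dotted line at the interval between the blocks. Filled points passed an adjusted p under 0.05, and grey crosses on the axis mark the 3 genes with too few counts.

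Of the annexins, Anxa1 rose the most. Anxa1 (chromosome 19, 20447918 to 20465434, minus strand, mm9) is induced by glucocorticoids and acts on formyl peptide receptors. It was measured at 28.0, 19.4 and 23.4 CPM in controls and 58.0, 179.5 and 159.7 CPM in knockouts. Knockouts 2 and 3 were well above knockout 1, and all 3 above the controls. The mean rose 5.61-fold, from 23.6 ± 4.31 to 132.4 ± 65.2 CPM (SD, n = 3), at a log2 fold change of 2.49 (SE 0.42, adjusted p 0.0282), by edgeR. Anxa3, whose protein is known from neutrophil granules and from epithelia, had the same order of libraries among the knockouts, at 64.2, 153.3 and 151.5 CPM, against 31.0, 24.7 and 25.0 CPM in controls. The groups did not overlap, and the log2 fold change was 2.19 (SE 0.34, adjusted p 0.0277), by edgeR.

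Anxa2 (chromosome 9, 69301427 to 69339602, plus strand, mm9) links actin to membranes and is the S100a10 partner. It had 161.5, 106.7 and 90.2 CPM in controls and 232.2, 326.6 and 415.7 CPM in knockouts, without overlap, and knockout 3 was highest, as for S100a10. The log2 fold change was 1.44 (SE 0.30, adjusted p 0.0326), by edgeR. Gm16144 overlaps its exons on the opposite strand, and the strand setting of the counting is not given in the sources used here, so reads of both cannot be told apart. Per length, the ratio of Anxa2 to S100a10 was 0.458, 0.395 and 0.305 in controls and 0.49995, 0.716 and 0.629 in knockouts. Each knockout was above each control, by 0.68 on the log2 scale, with p = 0.1 in a two-sided exact permutation test, the smallest that 3 against 3 allows (0.2 adjusted over 2 ratios). The ratio of S100a8 to S100a9 differed by 0.06 on the log2 scale (exact permutation p = 1).

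Anxa5 binds phosphatidylserine exposed on dying cells and was the most abundant annexin per length. In CPM it ran 183.1, 151.6 and 134.5 in controls and 285.3, 288.7 and 306.1 in knockouts. The 3 knockouts lay close together, knockout 1 included, and all were above the controls. Its log2 fold change was 0.91 (SE 0.17, adjusted p 0.0303), by edgeR. Within the summed per-length level of the 12 annexins the share of Anxa5 was 26.8% ± 1.84 in controls and 29.0% ± 3.30 in knockouts (SD, n = 3), and that of Anxa7 17.5% ± 2.99 and 9.50% ± 1.01.

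**Figure D5:**
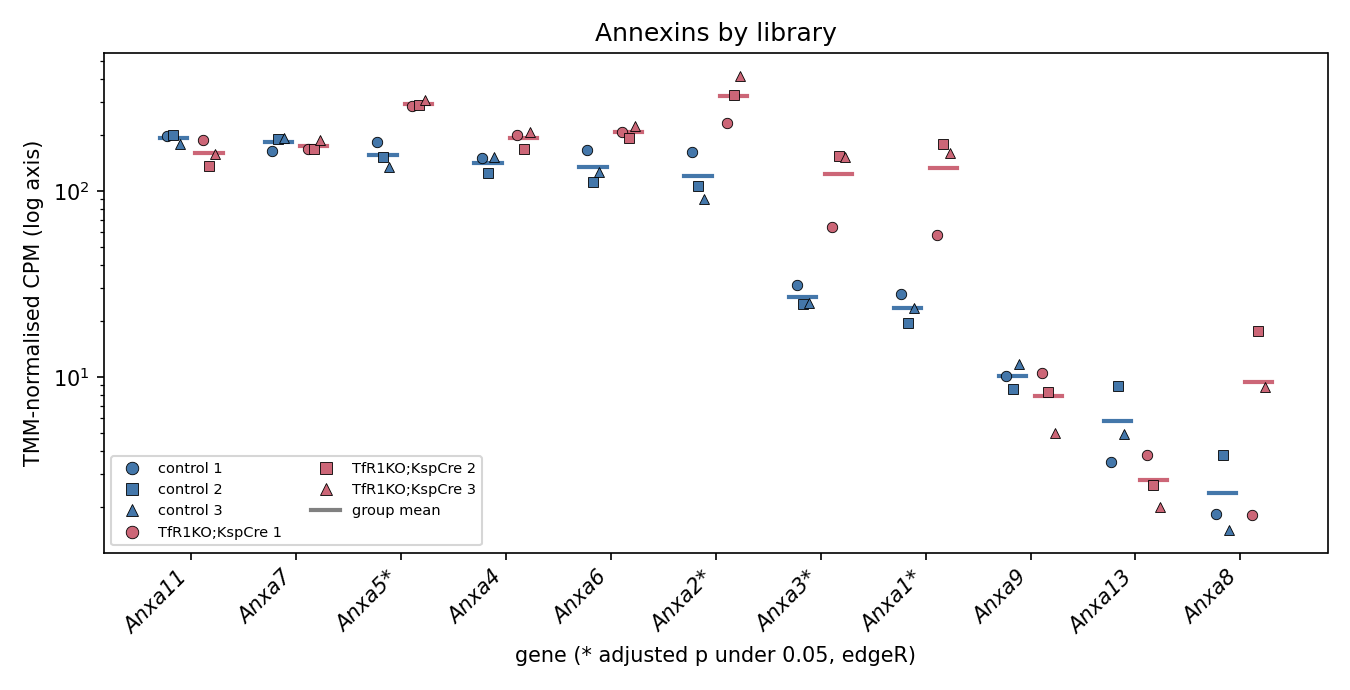
TMM-normalised CPM on a log axis for the 11 tested annexins, one symbol per library and a bar for each group mean (n = 3), ordered by control mean. The knockout symbols lie above all control symbols for the 4 starred genes and for Anxa4 and Anxa6, and for Anxa1 and Anxa3 knockout 1 lies between the controls and the other 2 knockouts.

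Anxa4 and Anxa6, membrane-organising annexins, had each knockout above each control without passing, at 0.43 (SE 0.16, adjusted p 0.0939) and 0.63 (SE 0.19, adjusted p 0.0603) by edgeR, and both passed with library size alone and in DESeq2's Wald test. Anxa8, an annexin of stratified epithelia, was at 1.841, 3.82 and 1.501 CPM in controls and 1.82, 17.7 and 8.81 CPM in knockouts. Only knockouts 2 and 3 lay above the controls, and the log2 fold change of 1.98 (SE 0.79, adjusted p 0.115) was 2.46 and called without knockout 1, and 1.14 without knockout 2. With all libraries DESeq2's Wald test called Anxa8 too, at an adjusted p of 0.0352. Anxa7 and Anxa11, relatives with long N-terminal tails, were at -0.06 (SE 0.14, adjusted p 0.767) and -0.26 (SE 0.17, adjusted p 0.291), with overlapping groups. Anxa9 was at -0.35 (SE 0.31, adjusted p 0.434), and its exons overlap Fam63a on the other strand. Anxa13, an annexin of intestinal and kidney epithelium, had the lowest log2 fold change, -1.03 (SE 0.44, adjusted p 0.13), also with overlap. Anxa10 had at most 1 count.

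Genes of the pathways in which the members act were then read from the same fit. Over 58 such genes 49 were tested, of which 12 were higher and 3 lower, with a median log2 fold change of 0.28, where 10.6% of all tested genes were higher and 6.64% lower, with a median of 0.02. The lists below are short, and their counts are to be read against these shares. These 15 calls were also lost (0 called by edgeR, 19 to 22 with an unadjusted p under 0.05) without control 1, control 2, control 3, knockout 2 or knockout 3, and there were 22 without knockout 1, in settings that called 0 to 73 and 5332 of all genes. Of the 6 receptors of released S100 and annexin proteins, 4 rose (median 1.71), of which Fpr1 passed the filter only through its knockout counts. Ager, the RAGE receptor, went from 2.09, 1.88 and 3.54 CPM in controls to 5.55, 7.88 and 12.9 CPM in knockouts, at a log2 fold change of 1.81 (SE 0.42, adjusted p 0.0374) by edgeR. Tlr4 was at 1.61 (SE 0.40, adjusted p 0.0414) and Alcam at 1.18 (SE 0.25, adjusted p 0.0326). Fpr1 was at 2.90 (SE 0.71, adjusted p 0.0396), but sparse, with 2, 2 and 3 counts in controls and 12, 38 and 7 in knockouts. It fails the count rule used for the members, under which 14 pathway genes were called, and limma-voom did not call it. Fpr2, the receptor of Anxa1, did not pass, at 1.89 (SE 0.88, adjusted p 0.161), nor did Bsg, at -0.32 (SE 0.27, adjusted p 0.424).

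Around the Anxa2 and S100a10 complex, 2 of 7 tested plasminogen system genes rose and 0 fell (median 0.27). Plaur, the urokinase receptor, was at 9.70, 6.35 and 6.48 CPM in controls and 13.9, 16.4 and 17.6 CPM in knockouts, without overlap, and its log2 fold change was 1.09 (SE 0.24, adjusted p 0.0349) by edgeR. The activators did not pass, with Plau (urokinase) at -1.04 (SE 0.45, adjusted p 0.14) and Plat at 0.26 (SE 0.25, adjusted p 0.48). Serpinf2, the plasmin inhibitor, was at -3.02 (SE 0.94, adjusted p 0.0646) and Ahnak, a large S100a10-binding protein, at 1.15 (SE 0.37, adjusted p 0.0685). Of the 9 genes of the list 2 had too few counts to test.

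The calcium transport genes that work with S100g split, with 2 of 9 higher and 1 lower (median 0.21). Trpv6, an apical calcium channel, stood at 3.83, 2.88 and 5.52 CPM in controls and 9.96, 15.7 and 43.8 CPM in knockouts, highest in knockout 3, where S100g was lowest. Its log2 fold change was 2.50 (SE 0.59, adjusted p 0.0378) by edgeR. Atp2b4, a plasma membrane calcium pump, rose by 0.64 (SE 0.16, adjusted p 0.042). Vdr, the vitamin D receptor, was lower, at 238.0, 297.2 and 369.5 CPM against 174.3, 94.4 and 100.7 CPM, with no overlap and a log2 fold change of -1.29 (SE 0.30, adjusted p 0.0361). Calb1, the larger calbindin, was at 747.1, 836.7 and 1256.3 CPM in controls and 985.5, 672.4 and 59.7 CPM in knockouts. Like S100g it was lowest in knockout 3, while knockout 1 lay within the control range, at -0.73 (SE 0.83, adjusted p 0.548). The other 5 genes of the list did not pass.

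In plasma membrane repair 2 of 12 genes rose and 0 fell (median 0.35), near the 17.2% called over all genes, namely Myof, a ferlin, at 1.60 (SE 0.41, adjusted p 0.0442) and Capn1, a calpain, at 0.62 (SE 0.15, adjusted p 0.0378) by edgeR. Among 8 intracellular targets of S100 proteins 2 rose and 1 fell (median 0.35). Iqgap1, a scaffold of the cytoskeleton, was at 0.93 (SE 0.22, adjusted p 0.038) and Trp53 at 0.56 (SE 0.14, adjusted p 0.0415). Fgf1, the growth factor released with S100a13, fell, at -1.5003 (SE 0.35, adjusted p 0.0371). The S100a4 target Myh9 did not pass, at 0.77 (SE 0.26, adjusted p 0.0805), nor did the S100a6 target Cacybp, at -0.06 (SE 0.12, adjusted p 0.735).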

How the data were processed

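Kidney RNA was measured in 3 control and 3 TfR1KO;KspCre libraries. The deposited tables hold raw counts, which the authors made for each gene, per the study's methods and the submitters' processing notes, with CASAVA 1.8.2, Trimmomatic, TopHat2 2.0.11 (mm9) and HTSeq from uniquely mapped reads. The annotation and strand setting of the counting are not given in the sources used here, so overlapping genes and near-identical copies are uncertain. Total counts ranged from 11501053 to 21001341.

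Counts were analysed in R 4.3.3 with edgeR 4.0.16 (filterByExpr, minimum count 10 and minimum total 15, TMM, glmQLFit with legacy quasi-likelihood, glmQLFTest) on the 6 libraries without covariates, with Benjamini-Hochberg adjustment over 15171 genes. The steps were tested on simulated data. The standard error is the absolute log2 fold change over the root of its F statistic. Per-length levels used merged exons of GENCODE M1, which matched 20791 of 24422 gene names and 29 of 30 members. The members, gene lists and tests were chosen with earlier results of these data known. Members that were called, the 5 highest per length and 8 chosen for their role are given by library, and the rest by fold change or counts. From each list the called genes and up to 4 others were named, except that some listed genes, though counted, are not reported here by name. Lists covered receptors, plasminogen system, calcium transport, membrane repair, intracellular targets, other EF-hand genes, S100-fused proteins and 11 sets of cell type markers.

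Alternatives were DESeq2 1.42.0 size factors, no filter, a minimum of 10 counts in 3 libraries, library size alone, DESeq2's Wald test, limma-voom (limma 3.58.1), the newer quasi-likelihood version, the ratio of Xist to Y-linked counts as a covariate, a replicate block, a 2-fold minimum, transcript length in place of merged exons, and leaving out each library. Ratios of complex partners used a two-sided exact permutation test.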

Additional observations from a re-analysis of the deposited data

How the results depend on the processing

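The calls rested on few libraries, as they did over all genes, and 0 remained of 5 S100, 4 annexin and 15 pathway gene calls under the covariate of sex-linked transcripts (edgeR, where 5, 6 and 18 had an unadjusted p under 0.05). That covariate sets control 2 apart and comes close to leaving control 2 out. Leaving out 1 library gave 0 to 7 S100, 0 to 5 annexin and 0 to 22 pathway gene calls. DESeq2's Wald test called 6 S100 genes, 7 annexins and 21 pathway genes, limma-voom 4, 4 and 11, and library size alone 6, 6 and 21. Over all genes these settings called 4882, 2030 and 3647 of 15171, against 2612 with TMM and edgeR. More members were thus called where more of all genes were, though not in step. Annexins stayed at 4 with limma-voom, and S100 genes were at 6 both with library size alone and with the Wald test. With at least a 2-fold change 4, 3 and 11 remained. DESeq2 size factors, no filter and the newer quasi-likelihood version each kept 5, 4 and 15 calls, and the count filter 5, 4 and 14. The 9 called members had 135 alternative values, of which 71 kept direction and call, 64 lost the call and 0 changed sign. Of 225 values for the 15 other members 10 gained a call and 5 changed sign. With library size alone Anxa11 was at 0.0064, Anxa7 at 0.21 and S100a1 at 0.13. Leaving out 1 library put S100a1 between -0.28 and 0.0112, positive without control 3 or knockout 2. The log2 difference in the S100a8 to S100a9 ratio ran from -0.107 (without knockout 3) to 0.394 (without knockout 1), and was negative without knockout 2 too. The cause of these shifts was not tested. S100a8 and S100b had at most 23 counts in a control and S100a14 at most 29, so counting error is large for these values.

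With the replicate number as a block, 0 S100, 0 annexin and 0 pathway genes were called by edgeR, with 8, 7 and 22 at an unadjusted p under 0.05. Over all genes the block left 0 calls and 5432 genes at an unadjusted p under 0.05. Deviations of same-numbered libraries from their group means correlated at -0.13, 0.01 and 0.21, so the numbers were not taken as a pairing.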

Other observations

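Related EF-hand genes outside the families were read from the same fit. Of 7 tested calcium buffers and sensors 0 were higher and 1 was lower (median log2 fold change -0.14). Pvalb, the calcium buffer parvalbumin of the distal convoluted tubule, stood at 30.9, 33.5 and 59.6 CPM in controls and 9.86, 0.602 and 2.37 CPM in knockouts. Each knockout lay below each control, at a log2 fold change of -3.25 (SE 0.87, adjusted p 0.0471) by edgeR. Of the proteins that carry an S100 domain fused to a long repeat and belong to the chromosome 3 cluster, only Tchh and Tchhl1 had counts enough to test, and neither passed, at -0.54 and 0.24.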
